A study of Mus musculus with 6 samples.

Results

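The acyl-CoA thioesterase genes were compared between livers of wild type mice and of mice carrying a mutant long non-coding RNA gene, Lncenc1. The members were chosen by name: Acot1, Acot2, Acot3, Acot4, Acot6, Acot7, Acot8, Acot9, Acot12 and Acot13, which are 10 of 24034 genes in the deposited table. Expression is in FPKM, which is fragments per length of transcript and per size of library. All 10 averaged at least 0.5 FPKM over the 6 libraries and were among 13250 genes tested. The family was proposed because several of its genes were known to be lower in the mutant livers, so the difference between the groups in these genes is given as a description, without a p-value.

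RNA was sequenced from liver of C57BL/6 mice at 25 weeks of age. The wild type group (WT, 3 libraries) has the genotype lncenc1wt/wt and the mutant group (HO, 3 libraries) the genotype lncenc13A/3A, the same allele on both copies, which the series' design text calls knockout. The labels do not say what the allele changes, and the genotypes are taken as labelled, since RNA of Lncenc1 was not analysed here. The labels give no substrain of C57BL/6, so a difference in genetic background cannot be told apart from the mutation. Nor do they tie each library to its own animal, so p-values measure the spread between these libraries, which may be technical.

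Acyl-CoA thioesterases split activated fatty acids into free acid and coenzyme A, and so set how much of each acyl-CoA is free for oxidation, synthesis or signalling. The genes fall into families that are unrelated in sequence: Acot1 to Acot6 encode enzymes with an alpha/beta-hydrolase fold, and Acot7 to Acot13 enzymes with a hotdog fold. Several, above all those of the first family, are induced in liver by fasting and by the nuclear receptor PPAR-alpha, which senses fatty acids and turns on their oxidation.

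The libraries were of liver and alike in total. Albumin (Alb), the main secreted protein of hepatocytes, was at 25339 to 33315 FPKM. Summed FPKM per library lay between 495570 and 518218. The spacing of low values, taken as 1 read, gave depths of 19104166 to 24617193 read equivalents. Acute phase genes were higher in HO: none of 26 such genes had a negative log2 difference, and their median was 0.94. Of these, 20 were higher at an unadjusted limma p under 0.05. In 14 of the 26 every HO value, replicate 1 included, was above every WT value. Their sum also differed inside the HO group: the summed FPKM of the 26 genes was 10175 to 13239 in WT, 13648 in HO replicate 1, and 32820 and 30169 in HO replicates 2 and 3.

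By GENCODE positions (mm10), 5 members lie in 1 cluster on chromosome 12 with the unlisted Acot5, all on the plus strand. In order these are Acot2 (83987861 to 83993873), Acot1 (84009490 to 84018371), Acot4 (84038379 to 84048601), Acot3 (84052144 to 84060402) and Acot6 (84100654 to 84111349), a span of 123.5 kb. The other members lie apart: Acot12 and Acot13 on chromosome 13, Acot7 on chromosome 4, Acot8 on chromosome 2 and Acot9 on the X chromosome. Acot5 was not analysed here.

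The sequences at the start sites of Acot2, Acot1, Acot4 and Acot3 are shown because these neighbours in the cluster had different values in HO although their coding sequences are alike. Each run is 280 bases of the plus strand, 5′ to 3′, 250 before the RefSeq start site and 30 from it on (GRCm38.p6): chr12:83987611-83987890 for Acot2, chr12:84009252-84009531 for Acot1, chr12:84038129-84038408 for Acot4 and chr12:84051894-84052173 for Acot3. Capitals mark AGGTCA or TATAAA on either strand (TGACCT and TTTATA when read on the other strand). AGGTCA is the core that nuclear receptors such as PPAR-alpha recognise, and TATAAA is the sequence of the TATA box. Among these windows TATAAA was only in that of Acot4, at -205, -153 and -151 from the start site. Whether these stretches act as a TATA box was not tested.
Acot2: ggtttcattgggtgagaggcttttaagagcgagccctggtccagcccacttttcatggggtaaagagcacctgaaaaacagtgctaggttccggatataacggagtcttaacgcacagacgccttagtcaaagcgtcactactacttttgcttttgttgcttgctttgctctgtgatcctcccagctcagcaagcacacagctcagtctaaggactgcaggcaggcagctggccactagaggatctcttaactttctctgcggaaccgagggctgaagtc
Acot1: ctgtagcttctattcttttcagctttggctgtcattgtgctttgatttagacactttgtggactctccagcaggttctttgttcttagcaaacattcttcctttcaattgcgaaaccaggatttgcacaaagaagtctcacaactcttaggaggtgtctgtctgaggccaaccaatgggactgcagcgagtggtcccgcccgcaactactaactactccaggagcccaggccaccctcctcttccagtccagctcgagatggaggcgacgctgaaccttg
Acot4: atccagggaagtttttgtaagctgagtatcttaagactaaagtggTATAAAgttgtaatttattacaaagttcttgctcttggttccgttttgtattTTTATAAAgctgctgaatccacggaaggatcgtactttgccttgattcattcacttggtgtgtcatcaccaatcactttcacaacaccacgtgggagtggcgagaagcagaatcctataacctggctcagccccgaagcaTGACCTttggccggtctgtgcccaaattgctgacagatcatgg
Acot3: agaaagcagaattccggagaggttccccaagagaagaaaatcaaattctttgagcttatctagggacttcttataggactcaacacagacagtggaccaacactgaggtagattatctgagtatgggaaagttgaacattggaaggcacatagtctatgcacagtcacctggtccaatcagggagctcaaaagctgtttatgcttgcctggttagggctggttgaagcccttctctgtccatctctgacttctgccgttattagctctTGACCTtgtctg
Acot4 had 1 AGGTCA on the minus strand, starting 13 bases before the start site, and Acot3 had 1 on the minus strand at base 19 after it (base 12 for a second RefSeq start, which lies farther along). Acot1 and Acot2 had none. Of the other members with a RefSeq entry, only Acot12 had 1, on the minus strand starting 110 bases before the start site. The log2 difference of Acot12 was -0.19. In all 32851 RefSeq promoter windows of 300 bases, searched on both strands, 16.3% held AGGTCA and 13.6% held TATAAA. The full PPAR-alpha element (DR1, a pair of AGGTCA cores set 1 base apart) was in 0.0396% of all windows, its looser form with any base at position 4 of each core in 0.381%, and CAAAGTCCA, a motif of the liver factor HNF4, in 0.475%. None of these 3 motifs was in the windows of the 8 members with a RefSeq entry. Acot6 and Acot13 had no entry.

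The coding sequences of the cluster were far more alike than these upstream windows. Identical bases, as a share of the longer sequence in a global alignment, made up 86.9% between Acot1 and Acot2, 81.5% between Acot1 and Acot3, and 73.4% between Acot3 and Acot4. The start-site windows of Acot1 to Acot4 had 50.3% to 54.0% identical bases, against 49.0% to 54.3% for pairs among Acot7, Acot8, Acot9 and Acot12. The windows of Acot1 to Acot4 were all below the median GC share of all promoters (52.7%). They were at 52.0% for Acot1, 51.3% for Acot2, 45.7% for Acot3 and 44.0% for Acot4.

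Likeness of the transcripts limits what can be assigned to one gene. Of all stretches of 100 bases in the transcript of Acot1, 21.9% also occur in a transcript of another gene, mostly in Acot2 (16.5%). The share was 17.1% for Acot2, 14.4% for Acot3, 0.360% for Acot4, 1.82% for Acot6, 0.968% for Acot9, and 0 for Acot7, Acot8, Acot12 and Acot13. For Acot3, 9.90% is shared with Gm49366, an annotated transcript that reads through from Acot4, and which was not analysed here. The sources used here do not say how reads with several matches were handled, so these values are uncertain to that extent. In stretches of 50 bases the shares were 33.7% for Acot1, 27.7% for Acot2, 20.2% for Acot9 (all with Acot10), 19.5% for Acot3, 6.71% for Acot6 and 4.88% for Acot4, and still 0 for the other 4 members.

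In WT liver the members covered a wide range of levels. On the FPKM scale, which is per length and so can be compared between genes, the order of the WT means was Acot13, Acot12, Acot4, Acot8, Acot7, Acot1, Acot3, Acot2, Acot9 and Acot6. Acot13 was at 59.6 ± 4.10 (SD, n = 3) and Acot6 at 0.676 ± 0.176. Neighbours in this order had separate WT values except Acot7 and Acot1, Acot1 and Acot3, and Acot3 and Acot2. Acot1 had the widest spread between WT libraries, with an SD of 37.4% of its mean, and Acot4 and Acot7 had the narrowest, 3.93% and 3.97%.

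**Figure D1:**
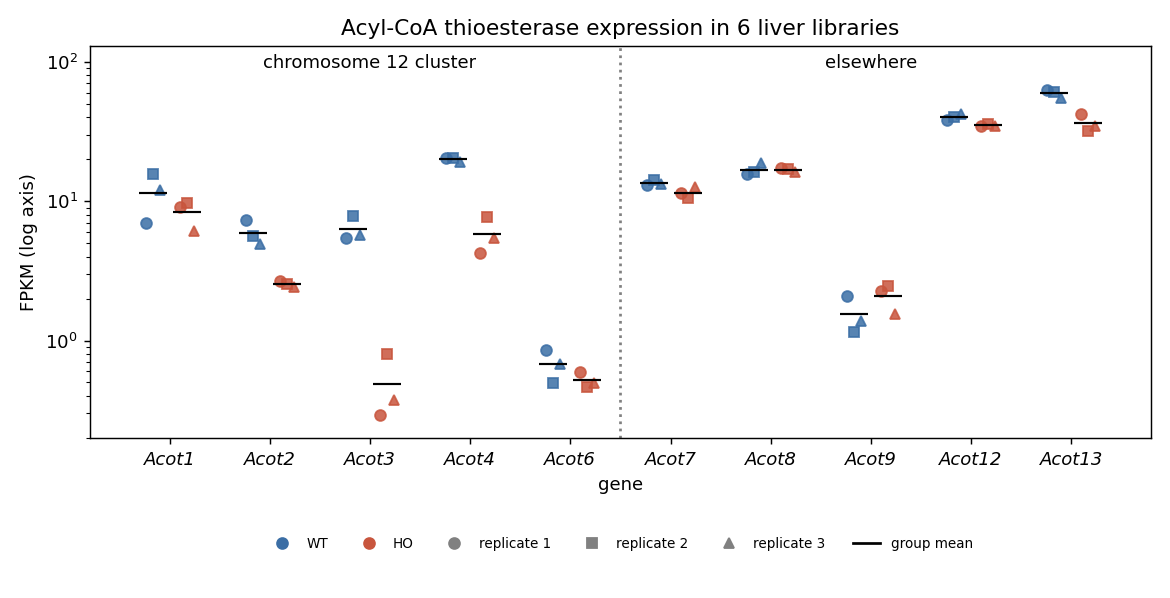
FPKM of each thioesterase gene on a log axis, with 1 point per library (colour for group, shape for replicate number) and a bar at each group mean of 3 libraries. The HO points of Acot2, Acot3, Acot4, Acot7, Acot12 and Acot13 lie below all WT points of the same gene, and those of Acot3 lie farthest below.

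Acot3, which encodes a peroxisomal enzyme for long-chain acyl-CoA, had the largest difference of the members. Its FPKM was 5.44, 7.89 and 5.71 in WT replicates 1, 2 and 3 and 0.292, 0.804 and 0.374 in HO replicates 1, 2 and 3. All HO values were below all WT values. The mean was 12.9 times lower in HO (6.34 ± 1.34 against 0.490 ± 0.275), a difference of -2.81 ± 0.23 (SE) in log2(FPKM + 0.5). The HO values equal about 20.01, 68.1 and 29.1 read equivalents, so they are measured with less precision than those in WT (357.3 to 638.4).

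Acot4, which encodes the peroxisomal enzyme that prefers succinyl-CoA and other dicarboxylic acyl-CoAs, was the most abundant member of the cluster in WT. It was at 20.5, 20.4 and 19.1 FPKM in WT and at 4.21, 7.70 and 5.44 in HO. The groups were far apart, and HO replicate 2 was again the highest of its group and HO replicate 1 the lowest, as for Acot3. The mean went from 19.98 ± 0.785 to 5.79 ± 1.77, which was 3.45 times lower, with a log2 difference of -1.74 ± 0.19 (SE).

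Acot2 encodes the enzyme of the mitochondrial matrix. Its FPKM was 7.28, 5.59 and 4.94 in WT and 2.65, 2.56 and 2.43 in HO. The HO libraries were nearly equal and all below WT, with means of 5.94 ± 1.21 and 2.55 ± 0.110 and a log2 difference of -1.06 ± 0.15 (SE).

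Acot1, the cytosolic enzyme and closest relative of Acot2, overlapped between the groups. It was at 7.01, 15.6 and 11.97 FPKM in WT and at 9.15, 9.74 and 6.14 in HO. WT replicate 1 lay among the HO values. The log2 difference was -0.40 ± 0.30 (SE), and moved to -0.71 without WT replicate 1 and to -0.16 without WT replicate 2.

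Acot6, a peroxisomal enzyme studied with branched-chain acyl-CoA, was the least abundant member. It was at 0.851, 0.499 and 0.678 FPKM in WT and at 0.593, 0.465 and 0.494 in HO, so the groups overlapped (log2 difference -0.20 ± 0.17, SE). These values rest on 71.5 to 104.3 read equivalents per library.

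Of the hotdog-fold enzymes, Acot13 differed most. It encodes a mitochondria-associated long-chain thioesterase that binds the phosphatidylcholine transfer protein. Its FPKM was 62.7, 61.0 and 54.9 in WT and 42.0, 31.96 and 34.6 in HO. The groups did not overlap. The means were 59.6 ± 4.10 and 36.2 ± 5.22, 1.65 times lower in HO, with a log2 difference of -0.72 ± 0.12 (SE).

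Acot12, the cytosolic acetyl-CoA hydrolase of liver, and Acot7, a cytosolic enzyme best known from brain, were lower by small amounts. Acot12 was at 38.0, 39.9 and 42.5 FPKM in WT and at 34.5, 35.7 and 34.8 in HO (log2 difference -0.19 ± 0.08, SE). Acot7 was at 13.1, 14.2 and 13.3 in WT and at 11.4, 10.6 and 12.6 in HO (log2 difference -0.23 ± 0.10, SE). Neither gene overlapped between the groups, but the gap was narrow in both. With median-of-ratios scaling these differences were -0.08 and -0.12.

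Acot8, a peroxisomal thioesterase of broad substrate range, had nearly equal means, 16.8 ± 1.67 in WT and 16.8 ± 0.650 in HO. Its values were 15.6, 16.1 and 18.7 in WT and 17.4, 17.01 and 16.1 in HO, which overlap. Of its exonic bases, 12.3% are also those of Snx21 on the other strand, a sorting nexin gene at 5.58 ± 0.569 and 4.25 ± 1.46 FPKM (limma adjusted p = 0.360). Acot12 shares 4.53% of its bases in the same way with 4833422C13Rik, which averaged under 1 FPKM in each group. Acot9, a mitochondrial enzyme, was at 2.10, 1.15 and 1.38 in WT and at 2.25, 2.46 and 1.54 in HO, with a higher mean in HO (2.09 ± 0.484) than in WT (1.54 ± 0.494) but overlapping groups (log2 difference 0.35 ± 0.22, SE). Peroxisomal members thus had differences from -2.81 (Acot3) to 0.00 (Acot8) on the log2 scale.

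Across the family, 4 of the 10 genes were past the threshold in the fit over all genes (limma with Benjamini-Hochberg adjustment at 0.05), all lower in HO: Acot2, Acot3, Acot4 and Acot13. Of all 13250 genes tested, 0.815% were called lower and 0.325% higher. None of the members was called higher, and none had an unadjusted p under 0.05 in that direction. Of all 13250 genes tested, 21.5% had an unadjusted limma p under 0.05, with 2186 lower and 664 higher in HO. With median-of-ratios scaling these were 1197 lower and 1256 higher. In 6 of the 10 every HO value was below every WT value, and in 0 every HO value was above. Over all genes tested the groups did not overlap in 27.9%, with HO below in 21.4% and above in 6.42%. Since the family was chosen with this contrast known, nothing is read from these counts. The median log2 difference was -0.31 over the members and -0.09 over all genes. Leaving out 1 WT library left 1 (replicate 1), 0 (replicate 2, with 4 at an unadjusted p under 0.05) or 3 members called (replicate 3), and leaving out 1 HO library left 3, 2 or 1, for replicates 1, 2 and 3. Acot13 was called under 5 of 16 alternatives, Acot2 under 9, Acot4 under 12 and Acot3 under 15.

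The make-up of the summed thioesterase RNA differed too. The 5 cluster genes summed to 41.1, 49.96 and 42.4 FPKM in WT and to 16.9, 21.3 and 14.9 in HO, so HO held 39.8% of the WT mean. The other 5 genes summed to 130.8 to 132.3 FPKM in WT and 97.8 to 107.5 in HO, or 77.2% of the WT mean. Acot4 supplied 45.2% ± 4.56 of the cluster's FPKM in WT and 32.6% ± 6.62 in HO (SD, n = 3). Acot1, in contrast, went from 25.5% ± 7.47 to 47.1% ± 6.54 of it. Acot3 went from 14.2% ± 1.41 to 2.68% ± 1.04. The cluster as a whole held 25.2% ± 1.93 of the family's FPKM in WT and 14.8% ± 2.66 in HO. In bulk liver RNA, fewer cells that express a gene and less of its RNA per cell cannot be told apart.

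**Figure D2:**
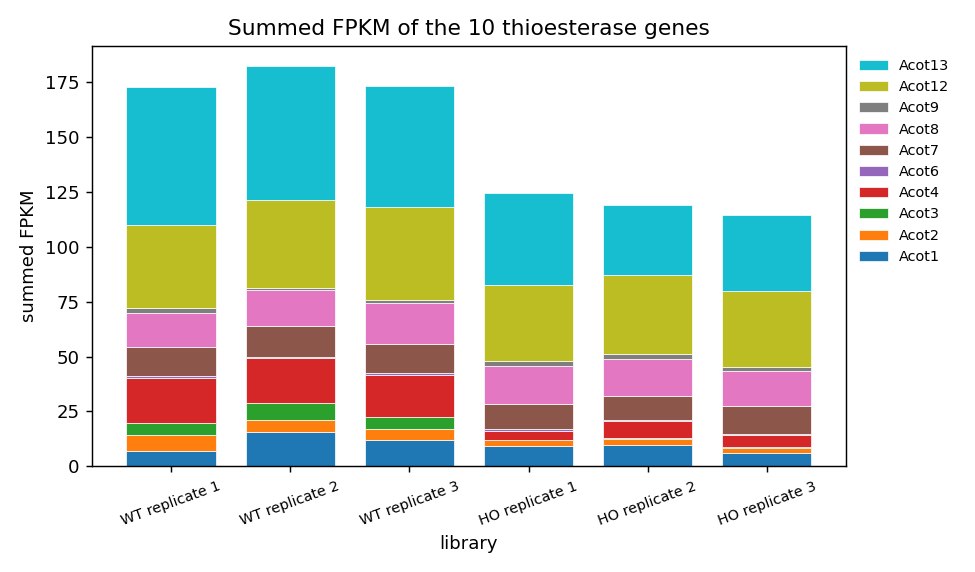
Summed FPKM of the 10 genes in each of the 6 libraries, stacked by gene from Acot1 at the bottom to Acot13 at the top. The stacks reach 172.7 to 182.3 FPKM in WT and 114.5 to 124.4 in HO, and the segment of Acot3 is barely visible in HO.

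Around the cluster, most other genes had small differences. Of 21 tested genes that are not members and start within 500 kb of it, 1 was called in HO, the antisense gene 4732463B04Rik (chromosome 12, 84039469 to 84053807, minus strand). It was at 5.78, 5.34 and 4.86 FPKM in WT and at 1.22, 2.25 and 1.93 in HO, with a log2 difference of -1.37 ± 0.19 (SE, limma adjusted p = 0.0339). Its exons cover 9.22% of the exonic bases of Acot4 and 9.08% of those of Acot3 on the other strand. These are 615 and 312 of its own 2932 exonic bases. The library kit keeps strand, but the sources used here do not say whether counting used it. Reads of the antisense gene in the shared bases therefore cannot be told apart from those of Acot4 and Acot3. Its call was lost with no filter on low values, and when replicate 1 or 2 of WT or replicate 2 or 3 of HO was left out.

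No gene next to the cluster was called. Riox1, 34.9 kb before Acot2 and encoding a histone demethylase of the nucleolus, had a log2 difference of 0.19 ± 0.19 (SE, limma adjusted p = 0.592). Dnal1, which starts 3.02 kb after Acot6 and encodes an axonemal dynein light chain, was under the filter at 0.373 FPKM in WT and 0.428 in HO. Heatr4, 3.01 kb before Acot2, was listed at 0 in all libraries. Farther out, Entpd5, which encodes a nucleotide-hydrolysing enzyme of the endoplasmic reticulum, had means of 71.0 and 42.2 FPKM for WT and HO and did not pass (limma adjusted p = 0.0794). Rbm25, a splicing factor gene, had means of 26.8 and 19.4 (0.0633).

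Within 5 Mb of the cluster, 2 of 88 tested non-member genes were called, both lower: 4732463B04Rik and Rad51b, against 1.14% of all genes tested in either direction. Rad51b, a gene of homologous recombination 4.17 Mb before the cluster, was at 8.84, 9.14 and 5.47 FPKM in WT and at 0.386, 0.823 and 0.403 in HO. Its log2 difference was -2.996 ± 0.24 (SE, limma adjusted p = 0.0109), and the call was lost without WT replicate 1 or WT replicate 2.

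**Figure D3:**
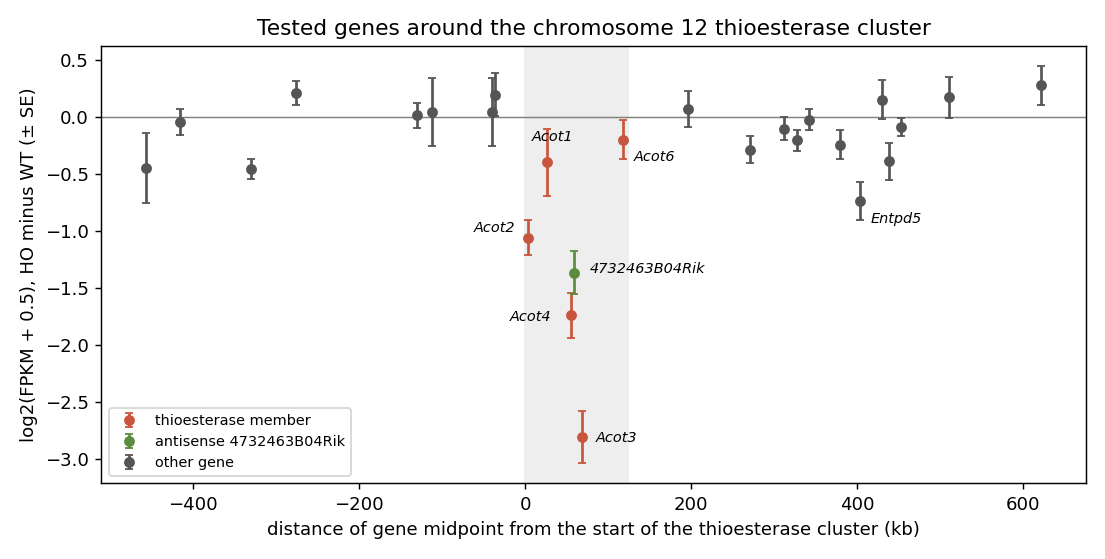
Difference in log2(FPKM + 0.5), HO minus WT, with its SE, for tested genes that start within 500 kb of the thioesterase cluster, against the distance of each gene's midpoint from the cluster's start in kb. The shaded band is the cluster of 123.5 kb, where Acot2, Acot4, Acot3 and the antisense gene lie between -1.06 and -2.81, while Acot1 and Acot6 lie near the genes outside.

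Genes of other thioesterases and of acyltransferases did not pass the test. Of 11 tested, 0 were called in limma (1 lower and 0 higher at an unadjusted p under 0.05), with a median log2 difference of -0.16. Ppt2, a lysosomal thioesterase, had means of 18.2 ± 1.71 and 13.7 ± 1.42 FPKM for WT and HO (limma adjusted p = 0.116). Acnat1, a peroxisomal acyltransferase, had means of 13.6 ± 0.632 and 20.1 ± 7.20 (limma adjusted p = 0.248). Baat, which joins bile acids to amino acids, was at 199.3 ± 1.92 and 197.5 ± 15.0 (limma adjusted p = 0.938). Acot11, a hotdog-fold thioesterase induced by cold in brown fat, was at 1.79 ± 0.665 and 1.30 ± 0.742 (limma adjusted p = 0.536). Acot10, a retroposed copy of Acot9, stayed at or under 0.178 FPKM.

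Enzymes that make acyl-CoA, the reverse of the thioesterase step, had 1 call among 16 tested synthetases, against 1.14% of all genes tested. This was Acss3, a mitochondrial short-chain synthetase that prefers propionate, which fell from 11.3 ± 2.48 FPKM to 4.19 ± 0.428 (log2 difference -1.31 ± 0.18, SE, limma adjusted p = 0.0305). The median of the list was -0.25. At an unadjusted p under 0.05, 6 synthetases were lower and 2 higher, or 3 and 4 with median-of-ratios scaling. As for the antisense gene, its call was lost with no filter and when replicate 1 or 2 of WT or replicate 2 or 3 of HO was left out.

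Among 14 genes of coenzyme A synthesis and breakdown, 0 were called in limma, with 8 lower and 1 higher at an unadjusted p under 0.05 and a median of -0.26. With median-of-ratios scaling, 7 were lower and 1 higher at that threshold. The smallest adjusted p belonged to the pantetheinases Vnn3 and Vnn1, which recycle the vitamin part of coenzyme A. Vnn3 had means of 38.6 ± 1.60 and 24.9 ± 3.12 FPKM for WT and HO (limma adjusted p = 0.0521), and Vnn1 at 64.5 ± 2.28 and 45.4 ± 5.35 (0.0727). Vnn3 passed with a filter at a mean of 1 FPKM and with array weights.

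Peroxisomal beta-oxidation shares its compartment with Acot3, Acot4, Acot6 and Acot8. Of its 22 tested genes, 2 were called lower and 0 higher in limma, against 0.815% and 0.325% of all genes tested. At an unadjusted p under 0.05, 11 were lower and 0 higher, against 2186 and 664 of all 13250 genes tested. With median-of-ratios scaling, 7 were lower and 3 higher at that threshold. The median of the list was -0.24. The thiolase gene Acaa1b had a log2 difference of -1.23 ± 0.13 (SE, limma adjusted p = 0.0211), and Abcd2, a transporter of very long-chain acyl-CoA into peroxisomes, one of -2.06 ± 0.27 (0.0284). Neither was called without WT replicate 1 or without WT replicate 2, and Abcd2 also not without HO replicate 2 or with no filter. Of 22 genes of mitochondrial beta-oxidation and ketogenesis, which share their compartment with Acot2 and Acot9, 0 were called in limma (10 lower and 0 higher at an unadjusted p under 0.05). The list had a median of -0.23. With median-of-ratios scaling, 6 of its genes were lower and 0 higher at an unadjusted p under 0.05. Bdh1, which makes the ketone body hydroxybutyrate, had means of 170.3 ± 26.9 and 108.3 ± 4.34 FPKM (limma adjusted p = 0.0587). Hadh, the short-chain hydroxyacyl-CoA dehydrogenase, had means of 236.8 and 156.4 (0.0635), and 4 genes of this list were called without WT replicate 3.

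PPAR-alpha target genes other than thioesterases had the lowest median of the pathway lists, -0.48 over 26 tested genes against -0.09 over all genes. Of these, 2 were called lower and 0 higher in limma, against 0.815% and 0.325% of all genes tested. At an unadjusted p under 0.05, 18 were lower and 1 higher, against 2186 and 664 of all 13250 genes tested. With median-of-ratios scaling, 14 were lower and 2 higher at that threshold. The called genes were the fatty acid transporter gene Cd36 (48.9 ± 2.86 to 19.5 ± 1.78 FPKM, log2 difference -1.31 ± 0.10, SE, limma adjusted p = 0.0109) and Acaa1b. In 18 of the 26 every HO value was below every WT value, and in 2 every HO value was above, against 21.4% and 6.42% of all genes tested. The omega-hydroxylase Cyp4a14, at 578.5 ± 116.6 and 234.6 ± 76.7 FPKM, did not pass (limma adjusted p = 0.0571). Angptl4, an inhibitor of lipoprotein lipase, had means of 42.5 ± 3.74 and 54.5 ± 10.7 (0.239). The number of calls was 1 without WT replicate 1 or WT replicate 2, and 6 without WT replicate 3.

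The regulators themselves had 0 calls among 16 tested in limma (3 lower and 5 higher at an unadjusted p under 0.05). Ppara had means of 39.9 ± 6.83 and 45.7 ± 4.74 FPKM for WT and HO (limma adjusted p = 0.442), and its partner Rxra at 104.5 ± 14.3 and 121.6 ± 11.6 (0.348). The smallest adjusted p were those of Rxrg, at 3.51 ± 0.694 and 1.76 ± 0.445 (0.0811), and Pparg, at 7.10 ± 1.53 and 3.51 ± 1.05 (0.0893). Circadian clock genes, which also govern several liver thioesterases, had 0 calls among 17 (1 lower and 0 higher at an unadjusted p under 0.05) and a median of 0.15. WT replicate 3 stood apart here: the 18 listed clock genes summed to 201.9, 220.1 and 348.7 FPKM in WT and 274.3 to 296.2 in HO. Without it, 3 clock genes were called higher in HO (8 at an unadjusted p under 0.05). Dbp, a clock output factor singled out for this library, was at 22.5, 21.7 and 84.7 in WT and 44.0 to 60.8 in HO. The part of the clock in the thioesterase values was not tested. Per1 was at 8.61 ± 1.63 and 5.53 ± 0.579 (limma adjusted p = 0.0972), and Bhlhe40 at 36.2 and 45.4 (0.278).

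**Figure D4:**
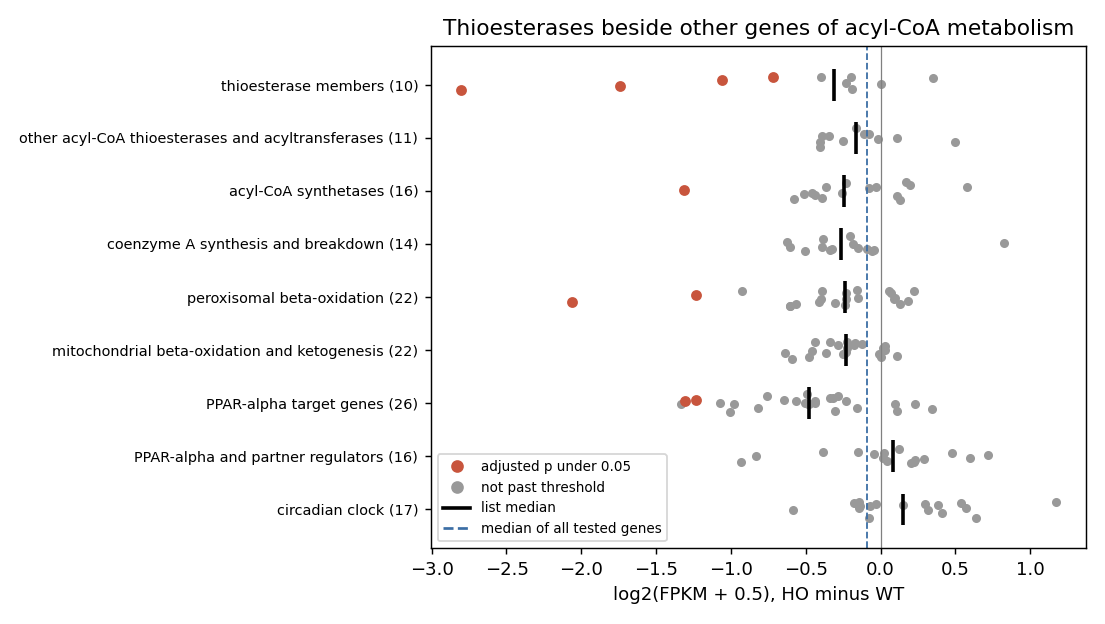
Difference in log2(FPKM + 0.5), HO minus WT, of each tested gene in the thioesterase family and in 8 lists of related genes, with the number tested in brackets, a bar at each list's median and a dashed line at the median of all tested genes (-0.09). Points past the threshold are in colour, and Acot3 at -2.81 lies farthest to the left.

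Some summed markers of other cell types differed between the groups as well. The adipocyte list, with 8 of 10 genes in the table, summed to 111.7 to 120.9 FPKM in WT and 58.9 to 72.0 in HO. Its defining genes Adipoq and Plin1 were at 0 in all libraries, and only Cfd (49.9 ± 6.14 and 5.86 ± 5.74) and Cidea (11.8 ± 1.46 and 1.72 ± 1.99) of its 6 tested genes had lower values in HO on the log2 scale. Neither was called, and the median of the 6 was 0.04. Stellate cell markers (11 of 11 in the table) summed to 97.8 to 127.8 in WT and 67.7 to 90.8 in HO, and erythroid markers (8 of 8, with Ermap at 0) to 644.6 to 667.4 and 319.2 to 547.7. Endothelial markers (10 of 10) summed to 72.2 to 89.6 and 68.2 to 71.9. Cholangiocyte markers (9 of 9) summed to 33.0 to 39.4 in WT and to 42.7 to 49.3 in HO, with means of 35.3 and 46.3. Of these genes only Tff3, a secreted trefoil peptide, was called (2.33 ± 1.66 and 16.4 ± 5.84, limma adjusted p = 0.0454). The higher sum was not shared across the list, since 4 of its 7 tested genes had lower values in HO and the median was -0.05. Macrophage markers overlapped between the groups, at 162.5 to 290.9 and 147.1 to 191.3. The part of these cells in the thioesterase values was not tested. HO replicate 1, whose acute phase sum was the closest to WT, was the lowest HO library for Acot3, Acot4 and Acot12 and the highest for Acot2, Acot6, Acot8 and Acot13. The part of the acute phase in these values was not tested.

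The genes outside the family whose levels over the 6 libraries were most like those of Acot4 were Rps19bp1, Znhit3, Vnn3, Inpp5f and 4732463B04Rik, with Pearson r from 0.993 to 0.995 on the log2 scale. For Acot3 they were Raet1e, Ppp2r5d, Pigyl, Ptpn9 and Gpd1, with r from 0.993 to 0.999. Among the 11560 genes compared, 478 had r above 0.9 with Acot4 and 597 with Acot3. These libraries share the difference between WT and HO, so a high r over 6 points is common here. Within the family, Acot3 and Acot4 had r = 0.988, Acot2 and Acot13 0.949, and Acot3 and Acot1 0.560, as descriptions over the same 6 libraries.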

How the data were processed

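Per the labels' protocols, an Illumina kit that keeps strand was used on total liver RNA. The unit deposited by the authors is FPKM, for every gene in all 6 libraries. HISAT2, StringTie, HTSeq, DESeq2 and build mm10 appear in the submitters' processing notes, with no role or version. Columns were tied to samples through the names in their headers.

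FPKM values are not counts. Low values were searched for the step worth 1 read, and 36.5% to 39.4% were whole multiples of it within 0.02 reads, too few to recover counts. Genes averaging at least 0.5 FPKM were kept, and log2(FPKM + 0.5), which understates the change of low genes, was fitted with limma 3.58.1 (R 4.3.3) on 2 groups, using eBayes with a trend of variance on level. All p-values are two-sided, with Benjamini-Hochberg adjustment over every tested gene and a threshold of 0.05. The fit was tested on simulated data. There, genes of low level, Acot3 among them, could be given only rises, so falls at that level were not tried.

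Members, lists and alternatives were chosen with earlier results of these data known. Named beside the members are up to 6 called genes of each pathway list or otherwise the 2 with the smallest p, genes around the cluster, and the 5 most like Acot4 and Acot3. Those named beyond this rule (Baat, Cyp4a14, Angptl4, Ppara, Rxra, Dbp, Cfd, Cidea, Tff3 and the cluster's neighbours singled out) were chosen after their values were seen. Positions are from GENCODE M21 and start-site sequences from RefSeq (GRCm38.p6). Python 3.11.15, pandas 2.3.3, numpy 2.4.6 and matplotlib 3.10.9 were used. Of 10 pathway and 8 marker lists, the acute phase list had 3 genes called higher of 26 (Socs3, Saa4 and Il1r1) and the hepatocyte list 2 of 12 (Cps1 and Ahsg). The hepatocyte list was mixed, with a median of 0.08 and 5 of 12 genes lower in HO on the log2 scale. Every HO value was above every WT value in 5 of the 12, and below in 3. Summed over this list, the group means were 68084 FPKM for WT and 61078 FPKM for HO. The medians of the marker lists were 0.04 for adipocytes, -0.30 for macrophages, -0.41 for stellate cells, -0.16 for endothelial cells, -0.05 for cholangiocytes, 0.22 for lymphocytes (1 gene tested), 0.71 for neutrophils (2 genes tested) and -0.88 for erythroid cells. Of their genes 1, the cholangiocyte marker Tff3, was called.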

Additional observations from a re-analysis of the deposited data

How the results depend on the processing

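Of all genes, 151 were called. The count was 100 with a pseudocount of 0.1, 40 with no filter, 77 with eBayes without a trend, 941 with array weights, 25 with the replicate number as a block, and between 6 and 259 when 1 library was left out. The number of members called lower was 4, and it was 2 with no filter, 1 with the replicate block (Acot3), and between 0 and 3 when 1 library was left out. The causes were not tested. Calls split into 43 higher and 108 lower, into 70 and 64 with median-of-ratios scaling, and into 56 and 72 with quantile normalization; the median log2 difference of all genes was -0.09, 0.01 and -0.00 in turn. Over 16 alternatives (15 for Acot6, which a filter at 1 FPKM removes) no member's log2 difference changed sign except that of Acot8, negative in 4. Equal replicate numbers did not deviate together (r = 0.07, -0.03 and 0.01 for numbers 1, 2 and 3), against -0.13 to 0.13 for unequal numbers. With 3 libraries per group, these r cannot show whether equal numbers share more than the number. Depth was lowest for Acot3 in HO (20.01 to 68.1 read equivalents), and was also low for Acot6 (71.5 to 104.3) and Acot9 (61.7 to 137.9).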
